A study of Sus scrofa with 24 samples.

Results

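Retinoid metabolism genes are described here in porcine subcutaneous fat, from 6 proposed genes: SDR16C5, RBP5, RBP4, ALDH1A1, RARA and RXRA. A probe was taken as a member when its gene name in the scanner files, or the symbol of its RefSeq accession, was 1 of these 6. This rule matched 9 of the 43603 probes, for 4 genes: 3 probes for SDR16C5, 2 for RBP5, 3 for RBP4 and 1 for RARA. No probe was matched to ALDH1A1, which was not analysed here. A probe for RXRA was found only through its description in the files, so it is given beside the others as named by description only. The genes were proposed with results of these arrays in view, so their differences between the groups are described and not tested.

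The study measured 24 pigs of 115 kg body weight, 1 array per pig, in 3 groups of 8. RFIneg pigs came from a line with low residual feed intake (intake above or below that predicted from growth and upkeep) and had feed ad libitum. RFIpl pigs came from a line with high residual feed intake and also had feed ad libitum. RFIplR pigs came from the high line and were given feed at the level that the RFIneg pigs ate. The labels state no breed, sex or age, and the tissue was homogenized whole.

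Vitamin A is carried in plasma as retinol bound to RBP4, which is secreted by liver and by fat cells, and is bound inside cells by small carrier proteins of the RBP and CRABP families, RBP5 among them. Retinol is oxidized to retinaldehyde by dehydrogenases such as SDR16C5 and then to retinoic acid by enzymes such as ALDH1A1. Retinoic acid binds the nuclear receptor RARA, which pairs with RXRA on DNA, and adipose tissue is known both as a store of retinyl esters and as a tissue whose fat cell differentiation responds to retinoic acid.

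The probes are 60-base oligonucleotides. Those shown let separate stretches of SDR16C5 and RBP4 be set side by side, with RBP5 because its name differs in the files and RARA as the receptor. The number after each name is the base at which the probe starts in the target sequence of the array design.

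SDR16C5, start 376: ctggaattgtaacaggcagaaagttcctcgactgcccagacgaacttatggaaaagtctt

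SDR16C5, start 768: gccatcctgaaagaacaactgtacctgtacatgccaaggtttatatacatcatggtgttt

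RBP5, start 430: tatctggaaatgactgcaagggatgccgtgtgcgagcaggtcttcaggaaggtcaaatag

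RBP4, start 218: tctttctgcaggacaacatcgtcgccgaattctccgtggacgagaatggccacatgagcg

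RBP4, start 512: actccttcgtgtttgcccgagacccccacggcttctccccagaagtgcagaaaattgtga

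RARA, start 971: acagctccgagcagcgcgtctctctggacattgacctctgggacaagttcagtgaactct

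Both RBP5 probes carry the name CRABP1 in the files. Their accession belongs to RBP5 in RefSeq (Sscrofa11.1 gene table, which served only to name genes), and the gene called CRABP1 there has an accession and probes of its own. Levels are log2 of the processed intensity minus the 75th percentile of the array, so a level of 0 is the brightness at that percentile. A level of 1 probe is not comparable with that of another probe. Unless a start is given, a gene is described at its probe with the highest mean level.

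The arrays fell into 17 bright ones, with a 75th percentile of 414 to 663 intensity units, and 7 dim ones, with 69.4 to 94.4. The dim arrays were RFIneg 1 and 7, RFIpl 5 and 6, and RFIplR 2, 4 and 6, so each group held both kinds. Array RFIpl 3 stood apart from its label's group: its median correlation with the other bright arrays was 0.985 for RFIneg, 0.98 for RFIplR and 0.975 for RFIpl. RFIpl 2 carried skeletal muscle transcripts, with a summed level of 10.25 over 6 markers against 3.62 to 5.21 on the other 23 arrays. A summed level is the log2 of the unlogged levels of the markers added together, so the brightest markers weigh most. RFIpl 7 and RFIpl 8 carried skin transcripts, with a summed level of 5.88 and 4.40 over 3 markers against -1.53 to 0.22 on the other 22. Of the listed markers, 4 of 10 for muscle and 6 of 9 for skin were not measured. In the fit with groups alone, none of the markers of the muscle, skin or fat cell lists passed in RFIneg against RFIpl. With array brightness as a block, 4 of 7 fat cell markers passed there, as given below. The fat cell markers were present throughout: 7 of 8 listed were measured, well above background on all 24 arrays, with a summed level of 9.43 to 10.37. In tissue taken whole, fewer cells of a type and less RNA per cell cannot be told apart.

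SDR16C5, the retinol dehydrogenase, lay lower in most RFIpl pigs than in the other groups. Its level in RFIneg ran from 3.14 to 5.86, with a median of 5.35. In RFIpl it ran from 0.85 to 5.74, with a median of 2.93. In RFIplR it ran from 3.05 to 6.07, with a median of 5.12. Over all 24 arrays the groups overlapped. Dim arrays gave lower levels than bright ones in each group, with a mean of dim minus bright of -2.12.

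Within 1 kind of array, RFIpl separated from the other groups except for a single pig. On the bright arrays the RFIpl levels were 2.82, 3.41, 5.74, 2.50, 3.52 and 3.04 for RFIpl 1, 2, 3, 4, 7 and 8. The bright RFIneg arrays ran from 5.27 to 5.86 and the bright RFIplR arrays from 4.94 to 6.07, so RFIpl 3 alone among the 6 lay within their range. On the dim arrays the RFIpl levels were 0.85 and 0.95, against 3.14 and 3.67 in RFIneg and 3.05, 3.41 and 3.97 in RFIplR. The 2 RFIpl arrays thus did not overlap with the others, but so few arrays can separate by chance. SDR16C5 was also proposed with these arrays in view, so nothing is concluded from its separation. The bright means were 5.56 ± 0.26 (SD, n = 6) in RFIneg, 3.51 ± 1.16 (SD, n = 6) in RFIpl and 5.57 ± 0.45 (SD, n = 5) in RFIplR. Without RFIpl 3, the RFIpl mean was 3.06 ± 0.42 (SD, n = 5), and the bright RFIpl arrays did not overlap with either other group. RFIpl 3 was the only bright RFIpl array inside the other groups, so leaving it out fixed this outcome, and nothing is concluded from it. The share of all kept probes that separate in this way is not given.

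Over all arrays the SDR16C5 level in RFIneg minus RFIpl was 2.17 (SE 0.61), a 4.49-fold difference, and in RFIplR minus RFIpl 1.93 (SE 0.61), a 3.8-fold difference. With array brightness as a block the SE fell to 0.31 in both, and the differences were 2.17 and 2.21. The difference of RFIneg minus RFIplR was 0.24 (SE 0.61), or -0.04 (SE 0.31) with the block. Both comparisons against RFIpl use the same 8 RFIpl arrays, so they are not independent of each other. Without RFIpl 3 and without the block, the 2 differences from RFIpl were 2.58 and 2.34. Without RFIpl 2, which carried muscle transcripts, they were 2.25 and 2.01, and without RFIpl 7 or RFIpl 8, which carried skin transcripts, RFIneg minus RFIpl was 2.26 or 2.19.

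The summed level of the fat cell markers moved with this pattern. Its range was narrower than that of SDR16C5, but the brightest markers weigh most in it. Over all arrays single markers ran from 8.25 to 8.77 for FABP4 and from -0.5 to 3.94 for LEP. On the bright arrays the summed level ran from 9.99 to 10.37 in RFIneg and from 10.03 to 10.28 in RFIplR. In RFIpl it was 9.61 to 9.98 without RFIpl 3, which lay at 10.32. On the dim arrays it was 9.43 and 9.50 in RFIpl, 9.84 and 9.94 in RFIneg, and 9.67 to 9.87 in RFIplR. With brightness as a block, 4 of the 7 fat cell markers passed as higher in RFIneg than RFIpl (ADIPOQ, PLIN1, CIDEC and LIPE) and 2 of 7 as higher in RFIplR than RFIpl (ADIPOQ and PLIN1), and 0 passed without the block. Of all kept probes, 6.63% and 10.4% passed in these 2 comparisons with the block. The summed level of 5 endothelial markers, of 6 listed, was also low in RFIpl, at 5.50 to 5.97 on bright arrays without RFIpl 3 (6.12), against 5.91 to 6.36 in RFIneg and 5.88 to 6.54 in RFIplR, so these ranges met. With the block 1 of these 5 passed as higher in RFIneg than RFIpl (VWF). In RFIplR against RFIpl 2 passed as higher and 1 as lower, among PECAM1, CDH5 and KDR. The preadipocyte and fibroblast list, with 5 of 8 markers measured, went the other way on bright arrays, with overlap. Its summed level was 8.11 to 8.58 in RFIpl without RFIpl 3 (8.03), against 7.28 to 8.41 in RFIneg and 6.84 to 8.41 in RFIplR. With the block 1 of these 5, POSTN, passed as lower in RFIneg than RFIpl, and 0 passed in RFIplR against RFIpl. The part of any of these marker lists in the differences of SDR16C5, RBP5 and CES1 was not tested.

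**Figure D1:**
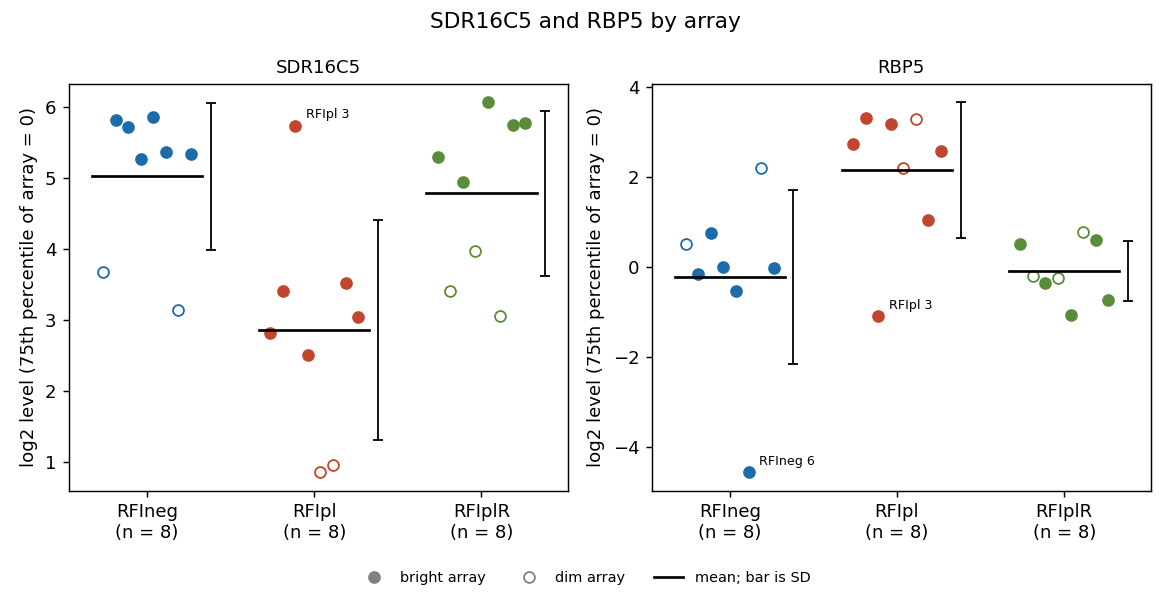
Levels of SDR16C5 (left) and RBP5 (right) on the log2 scale, 1 point per array, for the 3 groups of 8 pigs; filled points are bright arrays, open points dim arrays, the line is the group mean and the bar beside it the SD. Among bright arrays SDR16C5 in RFIpl lies at 2.50 to 3.52 except for RFIpl 3 at 5.74, and RBP5 shows the opposite order, with RFIpl 3 at -1.10 and RFIneg 6 at -4.57.

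The other SDR16C5 probes, at quite different positions of the transcript, gave the same order of groups. At start 768 the difference in RFIneg minus RFIpl was 2.26 (SE 0.83), and at start 376 it was 2.30 (SE 0.54). In RFIplR minus RFIpl these probes gave 1.82 (SE 0.83) and 2.01 (SE 0.54). At both, RFIpl 3 was again the highest RFIpl array, at 4.81 and 3.28, within the range of the bright arrays of the other groups. The probes of 1 gene share the RNA of the same pigs and are not replicates.

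Cut by slide and by scan day, the same arrays gave the same direction. Among arrays of 1 brightness on 1 slide, 5 of 5 slides that held both groups had the higher SDR16C5 level in RFIneg than in RFIpl, by 0.97 to 2.82, and 4 of 4 had the higher level in RFIplR than in RFIpl, by 0.55 to 3.12. The smallest of these came from the slide that held RFIpl 3, and without that array the ranges were 2.19 to 2.82 and 1.88 to 3.12. By scan day and brightness, RFIneg exceeded RFIpl in 3 of 3 sets, by 1.66 to 2.51. Most of these sets held 1 or 2 arrays of a group. SDR16C5 was proposed with these same arrays in view, so the counts of slides and sets are a description and support nothing.

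RBP5, a cellular retinol-binding protein, lay higher in most RFIpl pigs. Its level in RFIneg ran from -4.57 to 2.20, with a median of -0.02. In RFIpl it ran from -1.10 to 3.30, with a median of 2.65. In RFIplR it ran from -1.07 to 0.77, with a median of -0.23. In RFIpl 7 of 8 arrays lay above every RFIplR array, and RFIpl 3 lay below all 8 of them.

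The RFIneg pigs overlapped more with RFIpl than the RFIplR pigs did. RFIneg 7, a dim array at 2.20, lay above RFIpl 3, RFIpl 5 at 2.19 and RFIpl 7 at 1.03, while the other RFIneg arrays lay at 0.75 or lower. RFIneg 6 lay far below the rest, at -4.57. Its processed intensity of 22.8 was the lowest of this probe, yet the spot was well above background, as on all 24 arrays. The second RBP5 probe, at start 430, also had RFIneg 6 lowest, at -5.70.

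The RBP5 level in RFIneg minus RFIpl was -2.38 (SE 0.70), a 5.19-fold difference, and in RFIplR minus RFIpl -2.24 (SE 0.70), a 4.74-fold difference. The brightness block left these at -2.38 and -2.37 (SE 0.67 each). RFIneg minus RFIplR was -0.13 (SE 0.70), but 0.49 without RFIneg 6, -0.48 without RFIneg 7 and 1.26 on the dim arrays alone, so its direction was not settled. Without RFIpl 3 the differences from RFIpl were -2.84 and -2.71, and without RFIneg 6 that of RFIneg minus RFIpl was -1.76. Without RFIpl 2 they were -2.21 and -2.08. The second RBP5 probe gave -2.36 (SE 0.65) and -2.33 (SE 0.65). Within slides, RBP5 was lower than in RFIpl on 5 of 5 slides for RFIneg, by values from -5.31 to -1.07, and on 4 of 4 for RFIplR, from -2.79 to -1.11. The value of -5.31 came from the slide whose only RFIneg array was RFIneg 6, and the other slides gave -2.75 to -1.07. RBP5 too was proposed with these arrays in view, so these counts support nothing.

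**Figure D2:**
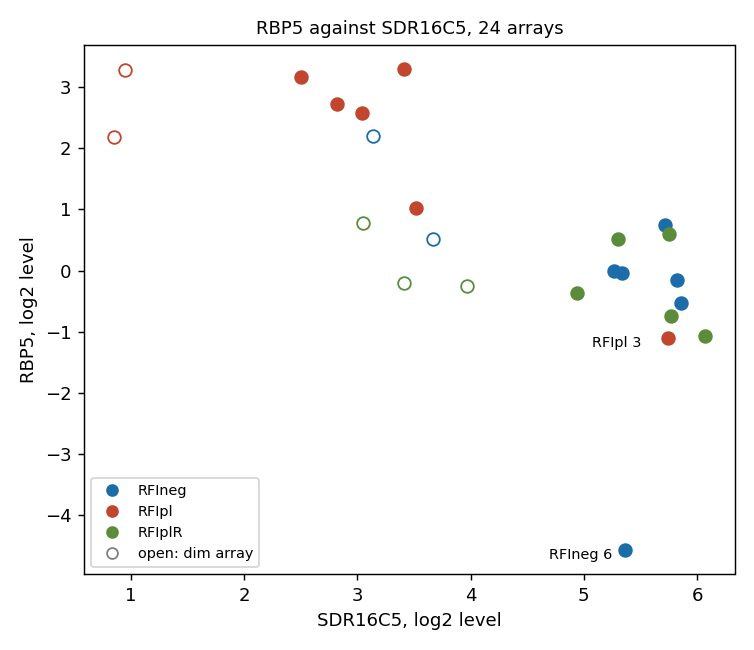
RBP5 level (vertical axis, log2) against SDR16C5 level (horizontal axis, log2) on each of the 24 arrays, coloured by group, with dim arrays as open points. Of the 8 RFIpl arrays 7 lie at an RBP5 level of 1.03 or higher and an SDR16C5 level of 3.52 or lower. The dim array RFIneg 7, with SDR16C5 at 3.14 and RBP5 at 2.20, lies in the same range. RFIpl 3, with SDR16C5 at 5.74 and RBP5 at -1.10, lies among the RFIneg and RFIplR arrays.

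On the bright arrays the opposite order of SDR16C5 and RBP5 within groups rested on a single pig. On the 17 bright arrays, with each group's mean subtracted, Pearson's r was -0.52 (permutation p = 0.0538, adjusted p = 0.269 over 10 pairs of genes) and Spearman's rho was -0.41 (permutation p = 0.0992, adjusted p = 0.248). Without the 2 arrays farthest from the median of SDR16C5, RFIpl 3 and RFIpl 4, r was -0.07, and without RFIpl 3 alone it was also -0.07. On the 7 dim arrays, which do not include RFIpl 3, r within groups was -0.68 (permutation p = 0.104, adjusted p = 0.347 over 10 pairs). The dim groups held 2, 2 and 3 arrays, so levels less the group mean were not freely exchangeable there. Permutation p-values on the dim arrays are thus not exact. Of the 10 pairs among the 5 measured genes on the bright arrays, 0 had an adjusted p under 0.05. The next largest r was 0.51, between SDR16C5 and RXRA (permutation p = 0.0535, adjusted p = 0.269), with a Spearman's rho of 0.56 (permutation p = 0.0198, adjusted p = 0.198), and r was 0.38 without RFIpl 3 and RFIpl 4.

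RBP4, the plasma carrier of retinol, differed little between the groups. Its level ran from 3.34 to 4.66 in RFIneg, with a median of 4.36, from 3.12 to 4.39 in RFIpl, with a median of 4.05, and from 3.42 to 5.05 in RFIplR, with a median of 4.11. All 3 groups overlapped, and the dim arrays were the lowest in each. RFIneg minus RFIpl was 0.25 (SE 0.27), RFIplR minus RFIpl 0.19 (SE 0.27) and RFIneg minus RFIplR 0.06 (SE 0.27). With the brightness block the first 2 were 0.25 (SE 0.13) and 0.31 (SE 0.13).

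The 3 RBP4 probes responded differently to array brightness. Dim minus bright arrays was -0.95 at the probe with the highest level, -0.85 at start 218 and 0.62 at start 512. At start 512 the level in RFIplR minus RFIpl was 0.44 (SE 0.18), or 0.36 (SE 0.10) with the block, a 1.28-fold difference. On the bright arrays this probe ran from 2.21 to 2.55 in RFIneg, from 1.88 to 2.23 in RFIpl and from 2.17 to 2.97 in RFIplR, so the ranges of RFIpl and of the other groups met at their ends.

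RARA, the retinoic acid receptor, was dim on every array, and its level followed array brightness. It ran from -4.33 to -0.62 in RFIneg, with a median of -3.83, from -4.05 to -0.35 in RFIpl, with a median of -3.72, and from -4.00 to -0.36 in RFIplR, with a median of -3.64. The dim arrays were the highest in each group, by 3.17 on average over the bright arrays, and the groups overlapped. The processed intensity itself was 25.4 to 58.5 on bright arrays and 31.6 to 74.3 on dim ones, and the spot was well above background on 6, 8 and 7 of the 8 arrays of RFIneg, RFIpl and RFIplR. RFIneg minus RFIpl was -0.30 (SE 0.73), or -0.30 (SE 0.12) with the brightness block. RFIplR minus RFIpl was 0.28 (SE 0.73) and turned to -0.12 (SE 0.12) with the block.

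The probe described as RXRA, the partner receptor, was also higher on dim arrays, by 1.70. It ran from -1.07 to 0.82 in RFIneg, with a median of -0.83, from -1.73 to 0.67 in RFIpl, with a median of -1.17, and from -1.36 to 0.67 in RFIplR, with a median of -0.49. The groups overlapped. RFIneg minus RFIpl was 0.34 (SE 0.42), or 0.34 (SE 0.16) with the block. RFIplR minus RFIpl was 0.48 (SE 0.42), or 0.27 (SE 0.16) with the block. On the bright arrays RFIneg, at -1.07 to -0.72, lay in and above the upper part of the range of RFIpl, at -1.73 to -0.88.

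**Figure D3:**
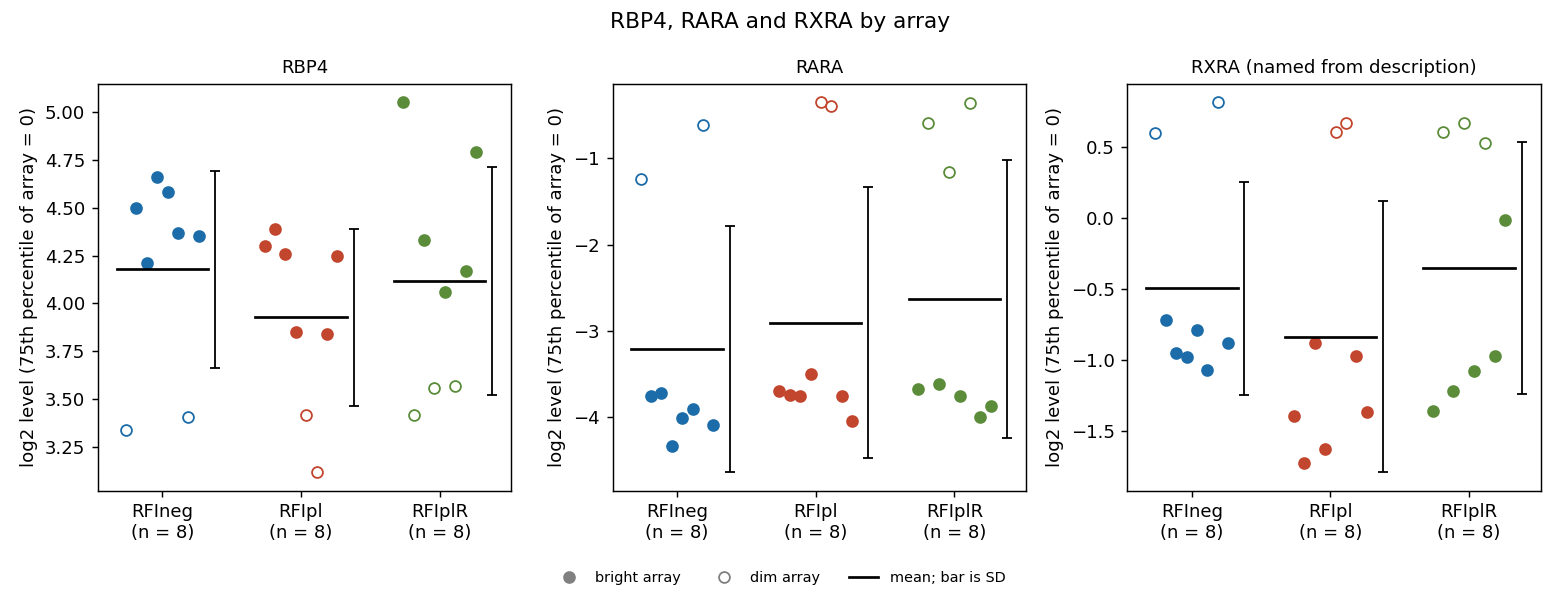
Levels of RBP4, RARA and the probe described as RXRA on the log2 scale, 1 point per array in 3 groups of 8; filled points are bright arrays, open points dim arrays, the line is the mean and the bar the SD. The dim arrays lie lowest for RBP4 and highest for RARA and RXRA, and the groups overlap in each panel.

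In the limma fit over all kept probes, 0 of the 10 probes of these genes passed an adjusted p of 0.05 in RFIneg against RFIpl, with 5 at an unadjusted p under 0.05. The background there was 0.206% of the 28601 kept probes, and 1962 of these had an unadjusted p under 0.05. In RFIplR against RFIpl 0 of 10 passed, with 6 at an unadjusted p under 0.05 and a background of 0.297%. Of all kept probes 2341 had an unadjusted p under 0.05 there. In RFIneg against RFIplR 0 of 10 passed, with 0 at an unadjusted p under 0.05 and a background of 0%, and 605 of all kept probes had an unadjusted p under 0.05. With brightness as a block, 5 of 10 passed in RFIneg against RFIpl, the 3 SDR16C5 and 2 RBP5 probes, beside a background of 6.63%. With the block 6 of 10 passed in RFIplR against RFIpl, those 5 and the RBP4 probe at start 512, beside a background of 10.4%. Nothing is read from these counts, since the genes were chosen on these comparisons.

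**Figure D4:**
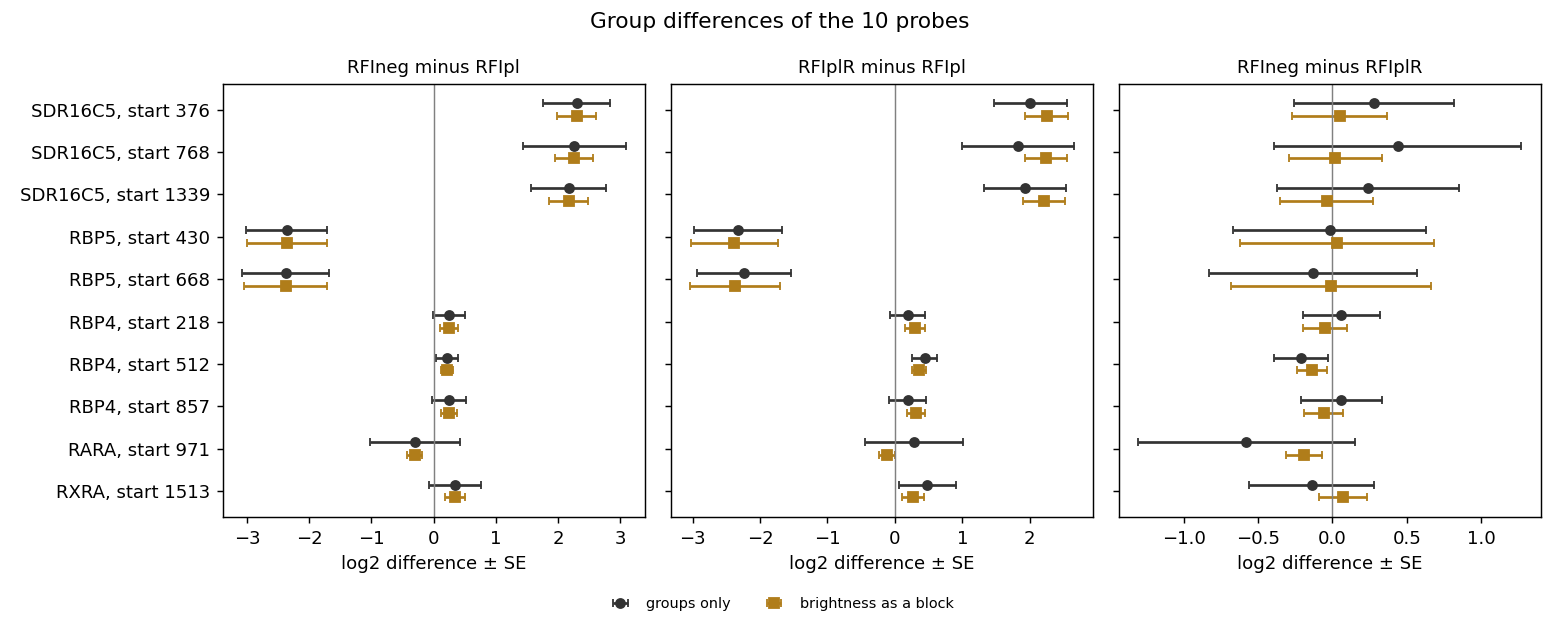
Difference in log2 level between groups for the 10 probes, named by gene and start in the target sequence, with the SE as bars; black circles are from the fit with groups alone and ochre squares from the fit with array brightness as a block. The 3 SDR16C5 probes lie at 1.82 to 2.30 and the 2 RBP5 probes at -2.38 to -2.24 in both comparisons with RFIpl in the fit with groups alone.

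The other genes of the pathway were taken from a list of 83 symbols by role, of which 40 were on the array and 36 were measured. In RFIneg against RFIpl 1 gene was higher and 0 were lower, and in RFIplR against RFIpl also 1 was higher and 0 lower. Both were CES1, a carboxylesterase that can release retinol from retinyl esters. Of all kept probes 0.206% and 0.297% passed in the same comparisons, and nothing is read from a count of 1 gene. In RFIneg against RFIplR 0 of 36 passed, with an unadjusted p of 0.0067 as the smallest. The median differences over the list were 0.04, -0.10 and 0.18 in RFIneg minus RFIpl, RFIplR minus RFIpl and RFIneg minus RFIplR, beside -0.01, 0.01 and -0.01 over all kept probes.

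CES1, like SDR16C5, lay lowest in RFIpl. Its level ran from 5.15 to 6.64 in RFIneg, with a median of 5.33, from 0.34 to 5.64 in RFIpl, with a median of 1.58, and from 4.12 to 6.78 in RFIplR, with a median of 5.38. RFIpl 3 was the highest RFIpl array here too, at 5.64, inside the range of the other groups. RFIneg minus RFIpl was 3.33 (SE 0.62, limma adjusted p = 0.0273) and RFIplR minus RFIpl was 3.07 (SE 0.62, limma adjusted p = 0.0348). The gene list was written with earlier results of these data known, so these p-values are no independent support for CES1. Of its 7 probes, which gave 2.62 to 3.35 in the first comparison and 2.29 to 3.07 in the second, 5 and 2 passed. The differences ran from 3.06 to 4.14 and from 2.63 to 3.99 over 13 alternatives, in 7 and 6 of which the call was lost. It was also lost when any 1 of 10 arrays was left out in RFIneg against RFIpl (RFIneg 2, 3, 4, 5, 6 and 8, and RFIpl 1, 4, 5 and 8), with an adjusted p of up to 0.0778 and differences of 3.05 to 3.81 over all 24 such fits. In RFIplR against RFIpl the same held for 11 arrays (RFIpl 1, 2, 4, 5, 6 and 8, and RFIplR 1, 4, 5, 7 and 8), with an adjusted p of up to 0.103 and differences of 2.79 to 3.55.

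By role, 1 of 5 measured genes of ester storage and release passed, CES1, in each comparison with RFIpl. Of all kept probes 0.206% passed in RFIneg against RFIpl and 0.297% in RFIplR against RFIpl. In limma 0 passed of 10 carriers and uptake genes, 14 receptors and cofactors, 3 retinol and retinaldehyde enzymes, 4 retinoic acid response genes and 1 carotenoid cleavage gene, BCO1, in any comparison. At an unadjusted p under 0.05 there were 6 genes of the whole list in RFIneg against RFIpl, 5 in RFIplR against RFIpl and 2 in RFIneg against RFIplR. Of the 28601 kept probes 1962, 2341 and 605 had such a p in the same comparisons. STRA6, the RBP4 receptor, counts under both carriers and response genes, and none of the 3 enzymes of retinoic acid breakdown was measured. Outside CES1, the smallest p in RFIneg against RFIpl belonged to DHRS7, a short-chain dehydrogenase, at 1.15 (SE 0.30, adjusted p = 0.134), and LIPE, hormone-sensitive lipase, at 0.55 (SE 0.17, adjusted p = 0.242). DHRS7 ran from 3.06 to 4.41 in RFIneg and from 1.96 to 3.76 in RFIpl, with RFIpl 3 again the highest RFIpl array. In RFIplR against RFIpl they belonged to NR1H3, a sterol receptor that pairs with RXR, at -0.38 (SE 0.14, adjusted p = 0.357), and PPARA, a fatty acid receptor that pairs with RXR, at 1.23 (SE 0.48, adjusted p = 0.40). The second PPARA probe gave only 0.21 there.

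In RFIneg against RFIplR the smallest p-values belonged to PPARA at -1.43 (SE 0.48), BCO1, which cleaves beta-carotene, at -1.32 (SE 0.51), and PPARD, another fatty acid receptor, at 0.61 (SE 0.30), each with an adjusted p of 0.999. The second probe of PPARA gave only -0.19 and that of PPARD -0.10, of the other sign, while BCO1 had 1 probe. With the brightness block, CES1, DHRS7 and LIPE passed as higher in RFIneg than RFIpl, with adjusted p-values of 0.00357, 0.0103 and 0.0186. In RFIplR against RFIpl the block gave CES1, DHRS7 and PPARA as higher, with 0.00221, 0.0338 and 0.0495, and NR1H3 as lower, with 0.0498. These 3 and 4 of 36 genes stand beside 6.63% and 10.4% of all kept probes in the same fit, so the shares lay near the background. LIPE is on the fat cell marker list as well. Of the other carriers, CRABP1, whose name the RBP5 probes carry in the files, gave -0.41 (SE 0.54) in RFIneg minus RFIpl, a gene chosen after its value was seen.

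**Figure D5:**
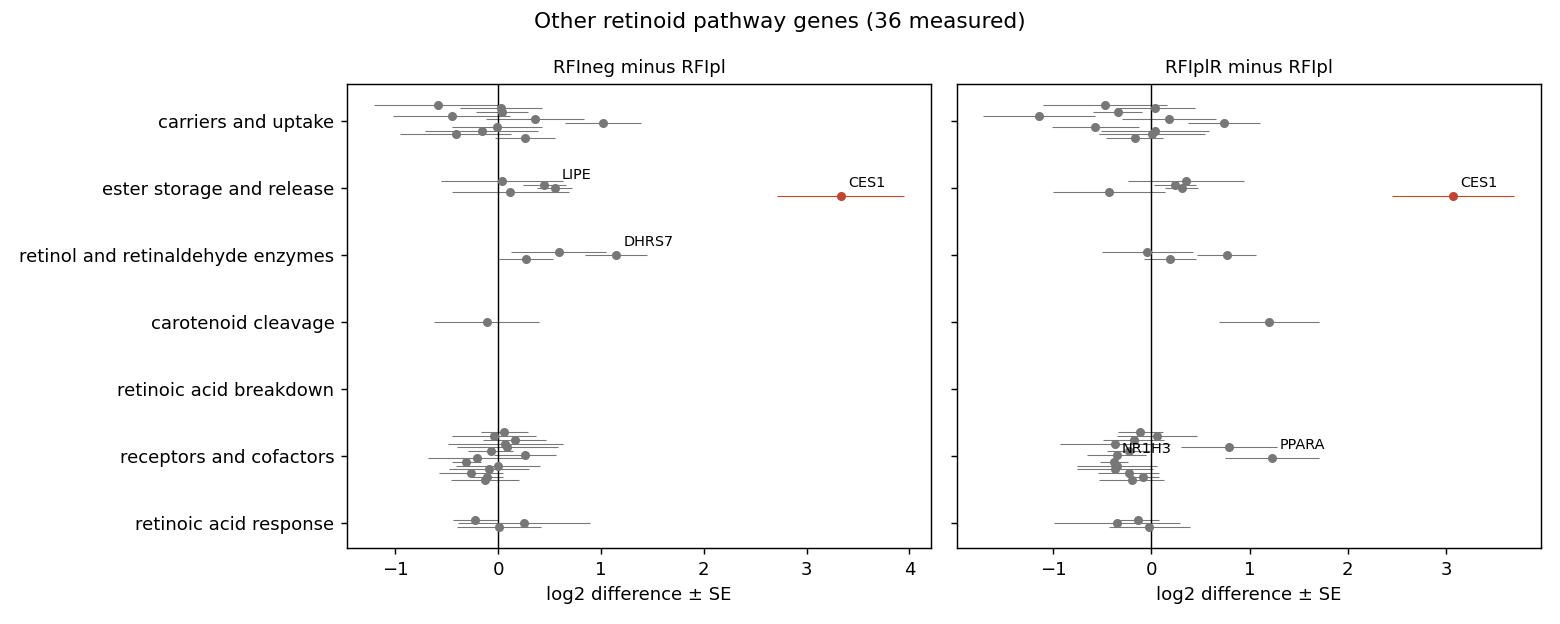
Difference in log2 level with its SE for the 36 other retinoid pathway genes, 1 point per gene, set out by role, in RFIneg minus RFIpl (left) and RFIplR minus RFIpl (right); red marks an adjusted p under 0.05. CES1, at 3.33 and 3.07, is the 1 red point in each panel, and no gene of retinoic acid breakdown was measured.

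The genes whose levels were most like those of each member are named by Spearman's rho over the 17 bright arrays, among 4214 other genes, with no test. For SDR16C5 these were FAM149A (0.89), SLA-DQA1 (0.88), which encodes an antigen-presenting protein of the pig, and FBXW4 (0.86). For RBP5 they were IRF3 (0.82), an interferon regulatory factor, TRA2B (0.81), a splicing factor, and TBX18 (0.81), a T-box transcription factor. For RBP4 they were RPL7 (0.82), a ribosomal protein gene, and ATXN2 (0.78). For RARA they were GUCA2B (0.76), IRF2BPL (0.74) and FOXN3 (0.73), and for RXRA SH2D3C (0.92), PDK1 (0.91) and PPY (0.91). The value that 95% of the genes fell below was 0.64 for SDR16C5, 0.53 for RBP5, 0.42 for RBP4, 0.38 for RARA and 0.67 for RXRA, and the 17 arrays share the groups and batches. On the 7 dim arrays the rho of the 3 genes nearest SDR16C5 was 0.68, 0.79 and 0.79, while ATXN2, GUCA2B, FOXN3 and PPY had a rho below 0 with their member there.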

How the data were processed

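Per the file headers, the deposited scanner files of the 24 arrays come from Feature Extraction 10.7.3.1 and give an intensity per spot. The authors' deposited value table gives log2 values of 24582 probes. Against the scanner files these were the log2 processed intensity less the median of its array, and how its probes were chosen is not stated. The submitters' processing notes name R 2.10.0.

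Here the log2 processed intensity (floor of 1) was scaled by subtracting, per array, the 75th percentile over probes that are not controls. Control spots and spots marked as non-uniform were dropped, and spots sharing a probe averaged. Of 43603 probes, 28601 were kept: well above background on 6 or more of the 8 arrays in some group, with at most 6 arrays missing. All 10 probes of the members passed. Of spots, 0 were saturated. RefSeq's Sscrofa11.1 gene table named 7187 probes by accession and 1365 by gene identifier. Another 3348 kept the symbol in the files, 35 had several symbols and 31668 none. No genome coordinates are given, since the build of the array design is not stated.

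Groups were compared in a single limma 3.58.1 fit (lmFit and eBayes, R 4.3.3, with version 1.17.8 of data.table) on all 24 arrays. P-values were two-sided and adjusted by Benjamini-Hochberg across the kept probes, with a threshold of 0.05. All adjusted p-values of single genes are limma's. The fit was tested on simulated data. Nothing states whether pigs were littermates, so p-values measure the spread between these samples. Correlations used permutation tests with 100000 resamples (scipy 1.17.1, numpy 2.4.6, pandas 2.3.3, Python 3.11.15). ALDH1A1 had no probe, so 10 pairs of genes could be formed. Figures were drawn with matplotlib 3.10.9.

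The members, the gene lists, the bright and dim split and the alternatives were chosen with earlier results of these data known. Named were the members at the probe with the highest mean level, every pathway gene called in a comparison or among the 3 smallest p-values, and the 3 genes most like each member. For RBP4, 1 of these 3 is not reported here. The alternatives were blocks for brightness, slide, scan day and replicate number, bright or dim arrays alone, normexp background correction (offset 50), quantile scaling, median scaling, no filter or a stricter one on dim probes, the authors' table, and leaving out each array. A fit with the brightness block and without RFIpl 3 was added after seeing the data. The number of arrays limits the precision.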

Additional observations from a re-analysis of the deposited data

Results flagged for a closer look

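RBP5 on array RFIneg 6 stood at a log2 level of -4.57, far below the next lowest RFIneg array at -0.53. The gap was 0.596 of the group's whole range, above Dixon's 95% critical value for 8 samples. Of 15 sets of a gene and a group this was the only 1 past its limit. Chance alone takes about 1 in 20 sets past it, so 1 flag among 15 is not unusual. Each group also mixed bright and dim arrays, which Dixon's test does not take into account. The second RBP5 probe was also lowest on this array, at -5.70. RFIpl 3, at -1.10, had a gap of 0.485 in its own group and did not pass.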

How the results depend on the processing

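All 13 alternatives gave SDR16C5 as higher in RFIneg than RFIpl (1.63 to 2.51) and in RFIplR than RFIpl (1.52 to 2.58), and RBP5 as lower (-2.81 to -1.37 and -2.78 to -1.98). In RFIneg against RFIpl only RARA of the other members changed sign (2 of 13), and in RFIplR against RFIpl RARA (4), RBP4 (1) and RXRA (1) did. In RFIneg against RFIplR all 5 members did under some. Probes called in RFIneg against RFIpl, 59 in all, numbered 1897 with brightness as a block, 297 on bright arrays alone, 0 on dim arrays alone (2726 at an unadjusted p under 0.05 in limma), 0 with slide as a block (2411), 0 with normexp (1256), 3 with median scaling, 2 with no filter, 39 in the deposited table and 3399 with the brightness block and no RFIpl 3. In RFIplR against RFIpl, 85 became 2963, 955, 0 (5028), 25 when slide was the block and 258 when scan day was, 4 with normexp, 20 with median scaling, 38 with no filter, 141 with the filter on all 8 arrays and 3671 with the brightness block and no RFIpl 3. Pathway genes called, 1 in each, were 3 and 4 with the brightness block and 6 and 5 without RFIpl 3 as well. They were 0 on dim arrays, with slide as a block, normexp, median scaling and no filter in both, and 0 on bright arrays alone in RFIneg against RFIpl. In RFIneg against RFIplR 0 probes were called (605 at an unadjusted p under 0.05).

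Leaving out 1 array gave 1 to 284 probes in RFIneg against RFIpl and 22 to 296 in RFIplR against RFIpl, highest without RFIpl 3 in both, and 0 to 3 and 0 to 1 pathway genes. The replicate number as a block gave 0 and 2 probes (1532 and 1844 at an unadjusted p under 0.05) and 0 pathway genes in both. Deviations of arrays with the same number correlated between -0.82 and 0.88, a range that array brightness enters, since numbers 3 and 8, bright in every group, gave 0.49 to 0.61. Among bright arrays alone, 0 of 11 pairs with the same number exceeded 0.1 (-0.28 to 0.08), so the pairing of pigs by number was not borne out there. Pairs of members with an adjusted p under 0.05, 0 in all, were 2 when group means were not subtracted and 1 on the 7 dim arrays (SDR16C5 and RARA, r = -0.99, permutation test, adjusted p = 0.00198). With group means subtracted from dim groups of 2, 2 and 3 arrays, the 7 levels were not freely exchangeable. That p is therefore not exact, and nothing is concluded from the pair. Normexp moved the median of all probes from 0.01 to 0.20 in RFIplR minus RFIpl and from -0.01 to -0.19 in RFIneg minus RFIplR, and dim probes limit RARA. The cause of these changes was not tested.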
